A study of Homo sapiens with 6 samples.

Results

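Proteasome subunit mRNAs were taken as the RefSeq transcripts of 34 listed genes, 1 transcript for each gene, of 15739 transcripts in all 6 libraries. The list holds 7 core alpha subunits (PSMA), 7 core beta subunits (PSMB), 6 base ATPases (PSMC), 11 regulatory non-ATPases (PSMD) and 3 subunits of the activator caps (PSME). The proteasome is the protease that degrades ubiquitin-tagged proteins. Its core is a barrel of stacked rings, in which alpha subunits guard the entry and some beta subunits cut the substrate, and a regulatory particle recognises, unfolds and feeds in the tagged protein. Its subunits are needed in fixed proportions and are known for being expressed together, and their mRNAs are abundant in dividing cells.

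RT-stop profiling counts how often reverse transcriptase (RT) halts at each nucleotide of poly(A)-selected RNA of U2OS, a human osteosarcoma line. Unstressed cells and cells starved for 2 h in a balanced salt solution were both treated with 8% dimethyl sulfate (DMS) for 5 min, which methylates unpaired A and C and so halts RT there. RNA purified and refolded before DMS treatment in 150 mM K+ or 150 mM Li+ served as reference, all of these libraries being reverse transcribed in K+, and a further pair without DMS was reverse transcribed in 150 mM K+ or Na+ by the labels, while the methods name K+ or Li+ for this step. The labels and the deposited file names of this last pair name the opposite cations, so these are called the library labelled K+ and the library labelled Na+, and results that depend on their order are given in both assignments.

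There was 1 library per condition, so no difference between conditions has a replicate check, no p-value was calculated, and every interval covers counting error only. The listed stops summed to between 12999691 in unstressed cells and 35371061 in the library labelled K+, and nucleotides with fewer than 3 stops were not listed. Of these stops, the 34 transcripts held between 1.24% (refolded in Li+) and 1.50% (starved cells). Each of them had between 942 and 17286 stops in unstressed cells and between 573 and 36667 in starved cells. All 8 listed markers of mesenchymal or osteosarcoma cells had stops in every library, from 30.7 (COL5A1) to 3827 (VIM) stops per 1000000 listed stops (SPM). In starved and unstressed cells LGALS1 had 1500 and 1322 SPM, VIM 2987 and 3493, TGFBI 1437 and 1701, S100A6 178 and 199, COL5A1 30.7 and 63.1, SPARC 303 and 1206, COL1A1 126 and 687 and FN1 72.1 and 244. Of the markers of other cell types, none was above 10.1 SPM (HBB, red cells), EPCAM and CDH1 (epithelial) had at most 2.29 and 0.198, and PTPRC (leukocytes) at most 0.141.

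The sequences below end at stops at G that were strong in 1 of the libraries without DMS and at least 2-fold weaker in the other, and they are shown because G-rich RNA can fold into RNA G-quadruplexes (rG4s), structures that K+ holds together and at whose edge RT halts. Each runs 5′ to 3′, is 30 nt long and ends at the stop, with runs of at least 2 G in capitals. The sequences are of the reference genome on build GRCh37 (hg19), plus strand. For 6 of the 7 genes with such stops the strongest is shown. It lies in the 5′ UTR in exon 1 of PSMD4 (chr1:151227225-151227254), in the coding sequence of PSMC5, where the stretch crosses a splice junction and ends in exon 8 (chr17:61908283-61908412, intron included), in the 3′ UTR of PSMD11 (chr17:30807800-30807829) and of PSMD3 (chr17:38153839-38153868), in exon 1 of PSMD2 with the stop in the coding sequence (chr3:184017039-184017068) and in the 3′ UTR of PSMD8 (chr19:38874028-38874057). A further stop of PSMD11 in the coding sequence in exon 1 (chr17:30771534-30771563) is shown with them. For PSME3 the stretch before its strongest stop was not matched in full, and that before a weaker one in its 3′ UTR (chr17:40993990-40994019) is shown.
PSMD4: cGGagacccGGtcGGGaGGGaGGaaGGtGG
PSMC5: ttcataGGGGaaGGGGcaagaatGGtgaGG
PSMD11, 3′ UTR: tgtgtgtGGcGGGagagtgaaaccttGGGG
PSMD11, coding sequence: gcGGtaagatGGcGGcGGcGGcGGtGGtGG
PSMD3: GGGGGctGGGGaGGGGtaGGGGGaatGGGG
PSMD2: GGcagtGGcGGcGGagatGGaGGaGGGaGG
PSMD8: tgagccccccGGGcactGGGtGGGGcaGGG
PSME3: gtgttttttaGGaactaGGGtGGcGGGGGG

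PSMD4 is a ubiquitin receptor, PSMD2 a large scaffold of the base, PSMC5 an ATPase of the base and PSME3 the nuclear activator subunit, while PSMD3, PSMD8 and PSMD11 belong to the lid. The 2 A/C positions with the highest ratio of starved over unstressed cells are shown next, each within 30 nt and with the stopped A in capitals, from exons of PSMA7 (chr20:60711944-60711973, minus strand) and PSMA4 (chr15:78841245-78841274, plus strand), both in the coding sequence.
PSMA7: tgctgaaattgaaaaAgaaaaagaagaaaa
PSMA4: cgtgagaagaaagaaAaagaacagaaagaa

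First, the share of stops of each mRNA was compared between starved and unstressed cells. A share counts stops and not molecules, so the amount of an mRNA and the stops on each copy cannot be told apart. Changes of at least 1.5-fold were called for transcripts with at least 100 listed stops in both libraries. All 34 mRNAs passed this minimum. Of these, 8 rose, 12 fell and 14 did neither. Among all 5883 transcripts past the minimum, 28.4% rose and 42.9% fell, and the members' shares of 23.5% and 35.3% lay below both. The median of the log2 ratio was 0.12 for the members and -0.26 for all transcripts, so relative to the median of all transcripts 14 members rose and 8 fell, beside 35.5% and 37.7% of all transcripts. With stops at U and G only, 13 of 29 members past the minimum rose and 8 fell, beside 26.6% and 46.2% of 1672 transcripts.

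The subcomplexes differed in their counts. Of the core alpha subunits, 4 rose, none fell and 3 did neither, with a median log2 ratio of 1.03. Of the core beta subunits, only PSMB6 fell and the other 6 did neither, with a median of -0.05. The base ATPases split into 3 that rose and 3 that fell. Of the regulatory non-ATPases, only PSMD14 rose, 6 fell and 4 did neither, with a median of -0.78. Of the activator subunits, 2 fell and PSME2 did neither. Summed over its members, the core alpha group went from 4032 SPM in unstressed cells to 6845 in starved cells, beside 3960 in RNA refolded in K+. The regulatory non-ATPases went from 3681 to 2415, beside 4062 in refolded RNA.

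The largest rises were those of PSMA3 and PSMA2, alpha-ring subunits of the core whose intervals overlapped. PSMA3 had 378 SPM in the library labelled K+, 379 in the library labelled Na+, 374 and 358 in RNA refolded in K+ and Li+, 322 in unstressed cells and 769 in starved cells. Starved cells stood alone above the 5 other libraries, 2.39-fold above unstressed cells (95% interval 2.31 to 2.47). PSMA2 had 542, 531, 538, 508, 499 and 1185 SPM in the same order of libraries and rose 2.37-fold (2.31 to 2.44).

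PSMC6, an ATPase of the base ring, had 529 and 513 SPM without DMS, 513 and 514 in RNA refolded in K+ and Li+, 363 in unstressed and 819 in starved cells. Its rise of 2.26-fold (2.19 to 2.33) thus began from a value in unstressed cells that lay below every other library. PSMD14, the deubiquitinase of the lid, showed the same order, with 401, 388, 375, 373, 283 and 608 SPM and a ratio of 2.15 (2.07 to 2.23). With stops at U and G only its log2 ratio went from 1.10 to 2.00. At this setting that of PSMC6 went from 1.17 to 1.75 and that of PSMA3 from 1.26 to 1.79. The median of the members past the minimum went from 0.12 to 0.47. PSMA4, an alpha-ring subunit, went from 725 in unstressed to 1527 in starved cells (2.10-fold, 2.06 to 2.15), while the 4 other libraries had between 700 and 755.

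The largest fall was that of PSMD3, a lid subunit. It had 230 and 239 SPM in the libraries labelled K+ and Na+, 230 and 218 in RNA refolded in K+ and Li+, 233 in unstressed cells and 23.9 in starved cells, 9.78-fold lower (8.94 to 10.7). Only the starved library was low, and the 5 others differed little. Its log2 ratio of -3.29 was -2.21 with totals rebuilt from the deposited means, which include unlisted stops. PSME3 had 179, 185, 189, 180, 171 and 30.1 SPM in the same order and was 5.68-fold lower (5.22 to 6.19) in starved cells. Its log2 ratio of -2.51 was -1.70 with rebuilt totals and -3.31 after thinning to the same depth, so the sizes of both falls depended on these settings.

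PSMD2 had more stops in unstressed cells than any other member, 1330 SPM, and between 1291 and 1429 in the 4 libraries of extracted RNA. In starved cells it had 245 SPM, 5.43-fold lower (5.27 to 5.60). PSMC4, a base ATPase, had 207, 203, 213, 203 and 239 SPM in these 5 libraries and 49.3 in starved cells, 4.85-fold lower (4.53 to 5.19). PSMB6, the core subunit with caspase-like activity, had 153, 153, 168, 162 and 242 SPM and 99.7 in starved cells, 2.42-fold lower (2.30 to 2.56), but this turned to a log2 ratio of 0.29 relative to transcripts of like G+C content.

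**Figure D1:**
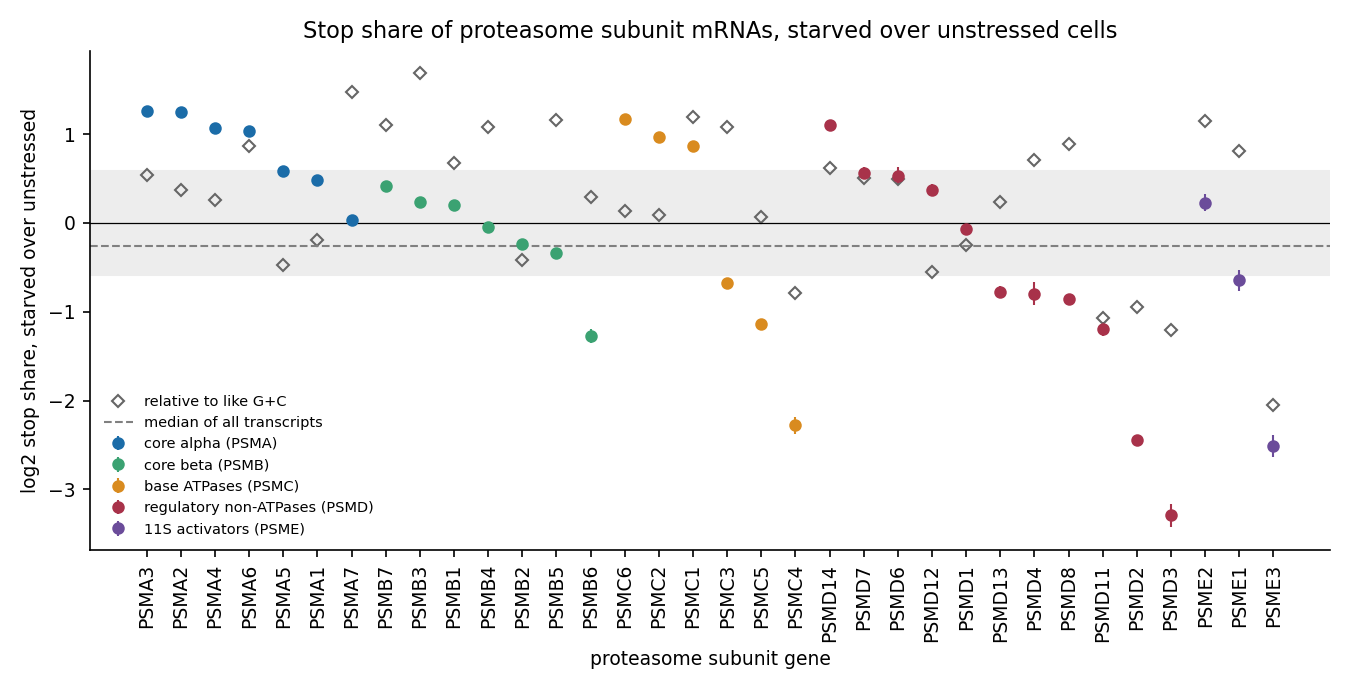
Log2 ratio of the stop share in starved over unstressed cells for each of the 34 mRNAs (filled circles, coloured by subcomplex, with 95% counting intervals) and the same ratio relative to transcripts of like G+C content (open diamonds). The grey band marks less than 1.5-fold and the dashed line the median of all transcripts, -0.26. PSMD3 lies lowest at -3.29 and PSMA3 highest at 1.26 among the circles, and the diamonds of all core beta subunits but PSMB2 lie above 0.

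The ratio moved with the G+C content of the transcript. Over 5593 transcripts of known sequence, Pearson's r between G+C content and the log2 ratio was -0.78 (Spearman's rho -0.79), and over the 34 members it was -0.71 (rho -0.76). All points of these correlations share the same pair of libraries. Of 5 bins of transcripts, that with the lowest G+C content (30.7% to 40.2%) had a median log2 ratio of 1.05 over all transcripts and 1.02 over 6 members. Between 49.8% and 56.4%, a range that held 14 members, it was -1.28 over all and -0.73 over these members. PSMC6 with 38.1% G+C and PSMD3 with 58.5% lay near the ends of the members' range, which ran from 37.9% to 58.5%.

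The core alpha transcripts had a median G+C content of 40.4%, the lowest of the subcomplexes, and the core beta transcripts 51.8%, the highest. When each log2 ratio was taken relative to the running median of transcripts of like G+C content, 14 members lay at least 1.5-fold above and 5 at least 1.5-fold below it, beside 25.8% and 25.3% of all transcripts. The order of the subcomplexes changed. The median was 1.08 for the core beta subunits, of which 5 of 7 lay above, and 0.37 for the core alpha subunits, of which 2 of 7 did. PSMB3, a structural beta subunit, reached 1.68, and PSMA7, an alpha subunit with 52.7% G+C whose share was nearly level (log2 ratio 0.03), reached 1.47. PSME3, PSMD3, PSMD11, PSMD2 and PSMC4 were the 5 that lay below, with PSME3 lowest at -2.05. Of the other members described above, PSMD3 had -1.21, PSMD2 -0.95 and PSMC4 -0.79 on this scale, and PSMD14 0.62, PSMA3 0.53, PSMA2 0.37, PSMA4 0.26 and PSMC6 0.14. Of the 8 members that rose in the plain ratio, 3 were also above their like in G+C, whereas the 5 below were all among the 12 that fell. The part of G+C content in the ratio was not tested.

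**Figure D2:**
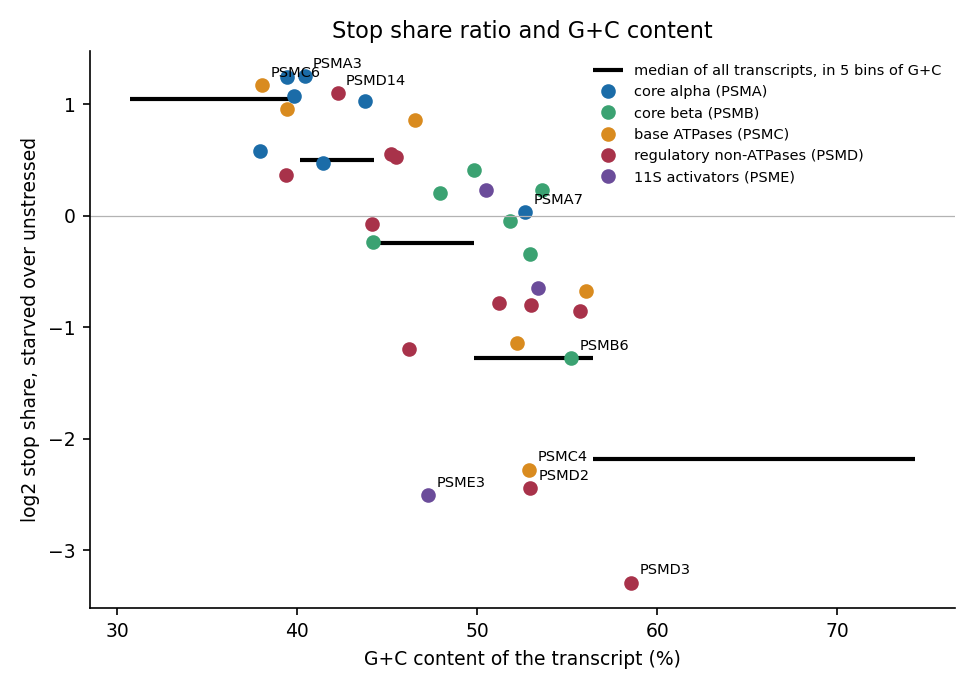
G+C content of the transcript (x axis, percent) against the log2 ratio of the stop share in starved over unstressed cells for the 34 mRNAs (points, coloured by subcomplex). Horizontal bars give the median of all transcripts in each of 5 bins of G+C content, which went from 1.05 to -2.18 as G+C content increased.

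The same relation was weaker inside the mRNAs. In windows of 100 nt, r between the window's G+C content and its log2 ratio was negative in 29 of 34 members beside 86.5% of 3411 transcripts, with a median of -0.29 (-0.47 over these transcripts) and a range from -0.84 in PSMC5 to 0.36 in PSMC6. Transcript length had no such relation over all transcripts (r = -0.01), and r was -0.31 over the members.

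By the counts of calls, the unstressed library stood closer than the starved one to RNA refolded in K+. Unstressed over refolded, 1 member rose and 1 fell at least 1.5-fold (PSMB5 and PSMD1, log2 0.60 and -0.77), beside 20.6% and 25.8% of all transcripts. Starved over refolded, 12 members rose and 9 fell, beside 21.3% and 43.1%. The medians of the log2 ratio were 0.11 and 0.28 for the members and -0.02 and -0.37 for all transcripts. With stops at U and G only, the members' medians were -0.18 and 0.15. Both comparisons share the refolded library. G+C content moved with each of them in opposite directions, with r = 0.64 for unstressed and r = -0.54 for starved cells over the 34 members.

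In SPM per 1000 nt of transcript, core subunits had the highest levels in unstressed cells. PSMA7 had 957, PSMB4 709 and PSMB1 696, of which the last pair lay close together. PSME3 with 49.3, PSMD4 with 54.4 and PSMD6, a lid subunit, with 55.2 had the lowest. In starved cells the same genes had 980, 685, 801, 8.67, 31.3 and 79.6, and PSMA4 had the highest level of all, 1368. Levels per length are low where the annotated 3′ UTR is long and holds few stops. PSMA5, 3815 nt long, had 100% of its stops in unstressed and starved cells in its first 1300 nt, and PSMB2, 4744 nt long, 85.9% and 87.6%.

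Next, the share of stops at A or C was used as a measure of the DMS signal. Without DMS, its median over the 34 mRNAs was 51.3% for the label K+ and 50.7% for the label Na+. It was 81.4% in RNA refolded in K+, 80.1% in Li+, 89.5% in unstressed cells and 77.0% in starved cells. All 34 mRNAs had a lower A/C share in the starved library than in the unstressed one, as did 5740 of 5883 transcripts. The drop was 12.5 percentage points in the median and at least 5 points for 33 members, beside 84.7% of all transcripts. The median difference over all transcripts was -9.37 points. Their median A/C share was 94.6% for the unstressed library and 85.2% for the starved one.

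By base, the stops of the members in unstressed cells were in the median 67.1% at A, 24.0% at C, 7.92% at G and 1.62% at U. In starved cells they were 61.7%, 15.1%, 17.2% and 5.20%. RNA refolded in K+ had 66.3%, 16.0%, 14.1% and 3.70%, so that starved cells stood closer to it at C, G and U than unstressed cells did.

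PSMC2, a base ATPase, had the largest difference. Its A/C share was 51.2% and 50.8% without DMS, 82.5% and 80.3% after refolding in K+ and Li+, 93.4% in unstressed cells (95% Wilson interval 92.5 to 94.1) and 76.8% in starved cells (76.0 to 77.4). PSMB7 and PSMB5, which carry the trypsin-like and chymotrypsin-like sites of the core, went from 88.2% to 71.8% and from 86.0% to 69.7%. The smallest difference was that of PSME3, from 94.1% (93.0 to 95.0) to 90.9% (88.6 to 92.8), and its intervals just missed each other. PSMD3 went from 89.0% to 81.5% and PSMD11 from 93.2% to 84.9%. All 3 mRNAs also fell in stop share, and the part of their lower stop counts in these small differences was not tested. A listed A/C share depends on depth, and after all libraries were thinned to the same depth and listed again the median difference was -11.1 points, and with totals rebuilt from the deposited means it was -9.90 points.

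**Figure D3:**
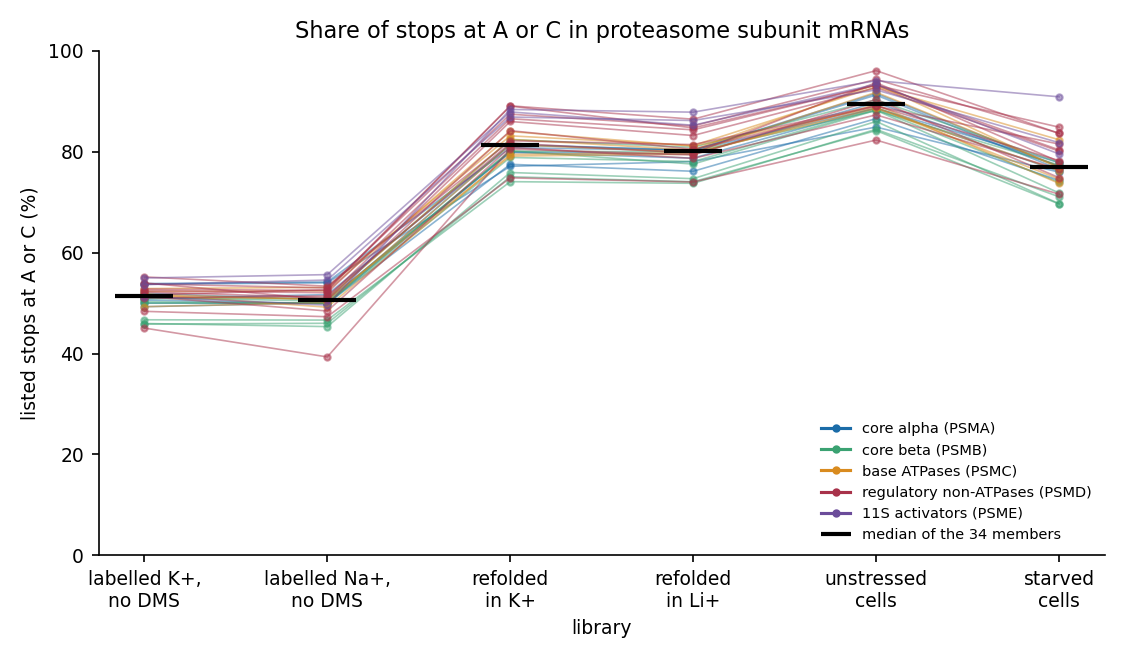
Share of listed stops at A or C (percent) in each of the 6 libraries, with 1 line for each of the 34 mRNAs, coloured by subcomplex, and black bars for the median. The medians are 51.3% and 50.7% without DMS and 89.5% and 77.0% in unstressed and starved cells, and every line goes down between the last pair.

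To compare where along an mRNA the DMS stops lay, the A/C stop counts of pairs of libraries were correlated across positions as log2(count + 1), after thinning to the least deep library. In total 33 members had at least 500 A/C stops in each DMS library, and PSMD3 did not. The median r of unstressed and starved cells was 0.46 over these members (0.17 over 2784 transcripts). It was 0.38 for unstressed cells and RNA refolded in K+ (0.07 over all transcripts) and 0.49 for starved cells and refolded RNA (0.13). For the refolded pair in K+ and Li+ it was 0.65 (0.27). This pair was the most alike of the pairs compared in all 33 members, and its median was also the highest over all transcripts. Positions of 1 mRNA share their library and their neighbours, and r is low where few stops fall on each position.

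PSMA2 (r = 0.78), PSMA7 (0.74) and PSMB4 (0.73) had the profiles most alike between unstressed and starved cells, and PSME3 (-0.26), PSMD11 (-0.08) and PSME1 (-0.01), an activator subunit, the least. Starved cells were closer than unstressed cells to RNA refolded in K+ in 30 of 33 members, beside 65.4% of all transcripts. PSMC4, PSMD2 and PSMB6 were the exceptions, and all 3 are among the 5 largest falls in stop share. Starved cells were also closer than unstressed cells to the library labelled K+ without DMS, in 32 of 33 members and 92.0% of all transcripts, with a median r of 0.40 beside 0.20. For the library labelled Na+ these were 32 of 33, 89.4%, 0.35 and 0.20. The part of this lower DMS signal in the likeness to refolded RNA was not tested.

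Single positions were then compared by E, the stop count over the mean count per nucleotide of the transcript. In total 2215 A/C positions of 26 members had at least 50 stops in the in-cell libraries together. At 164 of these (7.40%) E was at least 2-fold higher in starved cells, and at 217 (9.80%) at least 2-fold lower, beside 6.73% and 13% of 78766 such positions of all transcripts. The median log2 ratio was -0.04 at the 1960 A positions and -0.49 at the 255 C positions, and -0.07 and -0.57 over all transcripts.

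At the A of PSMA7 shown above, 54 stops were listed in starved cells (95% Poisson interval 40.6 to 70.5) and none in unstressed cells, at least 9.63-fold higher E counted from the limit of 3 stops. This position had 92 and 87 stops without DMS (labelled K+ and Na+) and 21 and 33 in refolded RNA, so stops were also listed there without DMS. A neighbour in the same A-rich stretch, 9 nt downstream, went from 5 stops in unstressed to 60 in starved cells (E of 0.408 and 2.62), and also 54 and 44 without DMS. The A of PSMA4 shown above went from none listed to 87 stops (E of 2.78, at least 7.68-fold higher), with 29 and 36 stops without DMS. PSMB4 and PSMA6 each had such an A in the 3′ UTR, where E went from 0.627 to 3.73 and from 0.732 to 4.28. These positions passed the minimum mainly through the starved library.

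At the positions with the largest fall, an A in the coding sequence of PSMB6 went from 43 stops in unstressed to 7 in starved cells (E of 10.9 and 2.22), an A in that of PSMA3 had 44 and 42 (9.86 and 2.31), and an A in the 3′ UTR of PSMC1, a base ATPase, had 55 and 38 (17.6 and 4.11). A C in the 3′ UTR of PSMB1, a structural beta subunit, went from an E of 5.33 to 1.20, and a C in the coding sequence of PSMA7 from 4.24 to 1.05. E at these 5 positions was between 0.459 and 1.73 without DMS.

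By region, A/C stops in cells lay more in 3′ UTRs. The density of A/C stops per A or C nucleotide in the 3′ UTR, relative to the whole transcript, had a median of 0.97 over 31 members in RNA refolded in K+, 1.61 in unstressed cells and 1.47 in starved cells. It lay above that in refolded RNA in 30 of 31 members in each in-cell library, the exception being PSMB6 in unstressed (0.57 against 0.84 in refolded RNA) and PSME3 in starved cells (0.74 against 0.90), beside 95.1% and 97.6% of all transcripts. The same order of libraries held over all transcripts, with medians of 1.18, 1.68 and 1.67. In the 5′ UTR the medians of 17 members were 0.64, 0.43 and 0.30, and all 17 lay below refolded RNA in both in-cell libraries, beside 92% and 96.8% of all transcripts, for which the medians were 0.46, 0.08 and 0.05. In the coding sequence they were 1.04, 0.91 and 0.98, higher in the starved than the unstressed library in 23 of 34 members beside 49.6% of all transcripts.

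PSMD1, the large scaffold of the base, showed this most clearly among the transcripts over 3000 nt. Its first 1300 nt held 37.3% and 36.7% of its stops without DMS, 36.4% and 38.0% in refolded RNA, 4.05% in unstressed and 5.84% in starved cells. Its 3′ UTR density was 1.03 in RNA refolded in K+, 3.43 in unstressed and 2.31 in starved cells. PSMD2 had 1.09, 3.03 and 3.86, and PSMC1 1.04, 2.95 and 1.34. The first 1300 nt of PSMD11 held 56.2% of its stops after refolding in K+, 23.7% in unstressed and 38.7% in starved cells. For PSME3 these were 38.2%, 16.3% and 50.2%, for PSMB2 88.6%, 85.9% and 87.6%, and for PSMA5 100% in each. How evenly the RNA was covered in cells was not tested. Between the in-cell libraries the 3′ UTR density was higher in starved cells in 12 of 31 members, beside 48.8% of all transcripts, and the 5′ UTR density in 4 of 17, beside 27.7%.

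**Figure D4:**
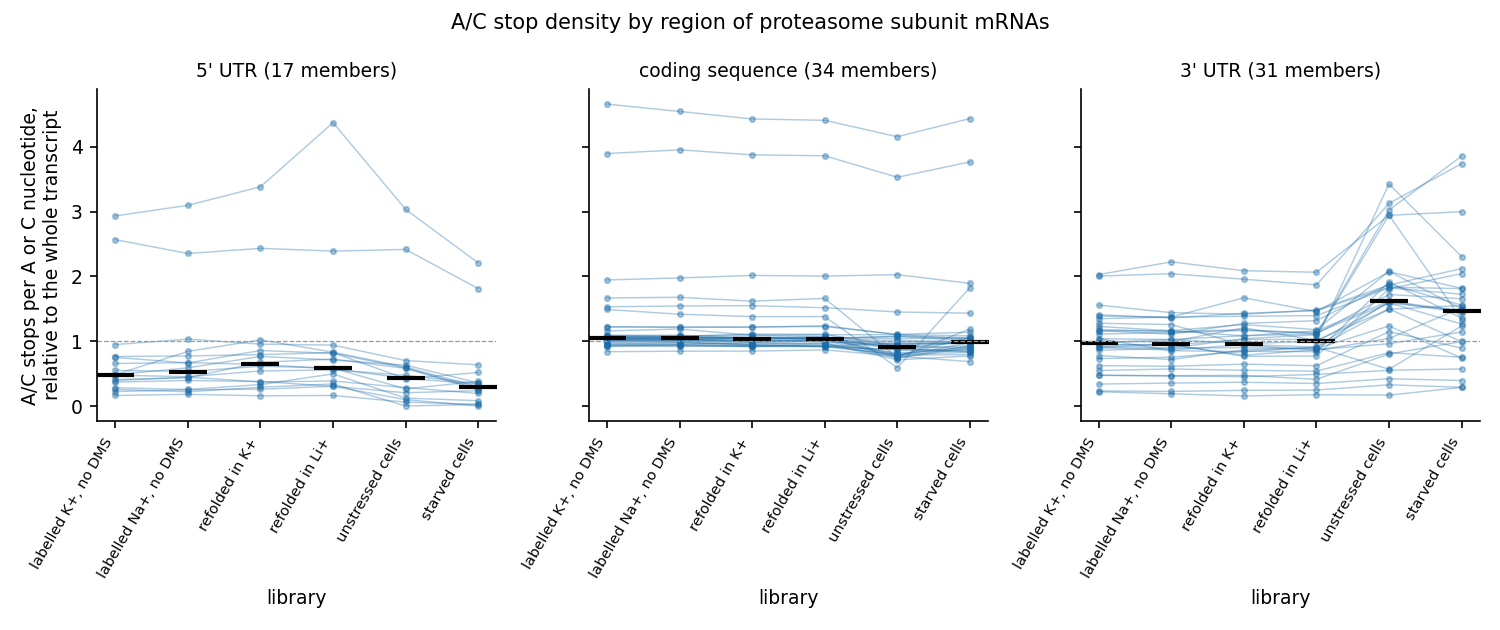
A/C stop density in the 5′ UTR (17 members), the coding sequence (34) and the 3′ UTR (31), relative to the whole transcript, in each of the 6 libraries. Each line is 1 mRNA and black bars are medians, and the 3′ UTR median goes from 0.97 in RNA refolded in K+ to 1.61 in unstressed and 1.47 in starved cells. The lines that stay above 3 in the coding sequence are PSMA5 and PSMB2, and that of PSMB2 also stays above 2 in the 5′ UTR.

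Finally, strong stops at G were taken as positions with an E of at least 10 in a library without DMS. By the paper, DMS also methylates G that is not held in a folded rG4, which weakens the RT stop there. The members had 20 such stops in 4 genes in the library labelled K+ and 38 in 11 genes in the library labelled Na+. Of all 3611 transcripts with at least 1 stop per nucleotide in both libraries, 14.9% and 43.5% had a strong stop, beside 11.8% and 32.4% of the members. A stop was called dependent on the cation where E was at least 2-fold that in the other library. With the labels as given, 1 stop of the members was, in PSMD4 (17 stops against 9), and 4.87% of all transcripts had at least 1. With the library labelled Na+ used as that in K+, 19 stops in 7 genes were, which is 20.6% of the members beside 37.8% of all transcripts.

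The strongest was that of PSMD4, at the end of the sequence shown above. It had 343 stops in the library labelled Na+ (308 to 381, E of 189) and 6 in the library labelled K+ (2.20 to 13.1, E of 3.61), a 52.4-fold difference in E. In the DMS libraries it had 17 stops after refolding in K+ and 11 after refolding in Li+, beside 4 in unstressed cells and 11 in starved cells (E of 14.1, 7.15, 4.24 and 10.8). Further strong stops of this mRNA at positions 57, 62, 68 and 72 differed less than 2-fold between these libraries.

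The stop of PSMD2 shown above had 310 stops in the library labelled Na+ and 9 in the library labelled K+ (E of 20.8 and 0.587), and at most 5 in each DMS library. That of PSMD3 had 129 and none listed (E of 31.7 and 0), and 13, 15, 8 and 5 stops in RNA refolded in K+ and Li+ and in unstressed and starved cells. For PSMD8 these were 165 and none listed, and 0, 8, 0 and 5. The stop of PSMD11 in the 3′ UTR had 77 and 9 (E of 36.3 and 4.11), and that in the coding sequence 65 and none listed, with none listed in the DMS libraries.

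PSMC5 had 360 stops at the end of the sequence shown above in the library labelled Na+ and 16 in the library labelled K+ (E of 39.3 and 1.70). PSME3 had 128 and none listed in its 5′ UTR (E of 58.0 and 0). Over the 19 stops, the median E was 20.8 in the library labelled Na+, 1.37 in the library labelled K+, 0.781 in RNA refolded in K+ and 1.97 in Li+. It was 0 in both in-cell libraries, where 7 and 9 of the 19 were listed at all. No stop of the 19 had more than 8 stops counted in unstressed or 11 in starved cells, and a difference between these libraries was not tested at them.

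The sequences before the 19 stops were compared with those before the other strong stops. A motif of 4 runs of at least 2 G, separated by 1 to 9 nt and searched on the RNA strand in the 45 nt up to the stop, was found at 16 of them and at 5 of the 33 other strong stops. The 30 nt up to the stop held a median of 16 G and 8 G. The stricter motif of 4 runs of at least 3 G, separated by 1 to 7 nt, was found at 5 and 0, and 4 of these 5 lie close together in PSMD3. Many of the 19 share a stretch, and many of the 33 lie in PSMA5 and PSMB2. Without PSMA5 and PSMB2, the motif with runs of 2 was found at 4 of 9 other strong stops, all 4 in PSMD4 near its strongest stop. With only the strongest stop of each 30 nt as well, it was found at 9 of 10 of the former and 1 of 5 other stops. The median was then 15 G and 11 G. Over whole transcripts the stricter motif was found in 4 of the 34 members (PSMD3, PSMD8, PSMD11 and PSME1, 11.8%), beside 18.7% of all 3611 transcripts. The motif with runs of 2 was in all 34 members and in 97.1% of all transcripts.

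**Figure D5:**
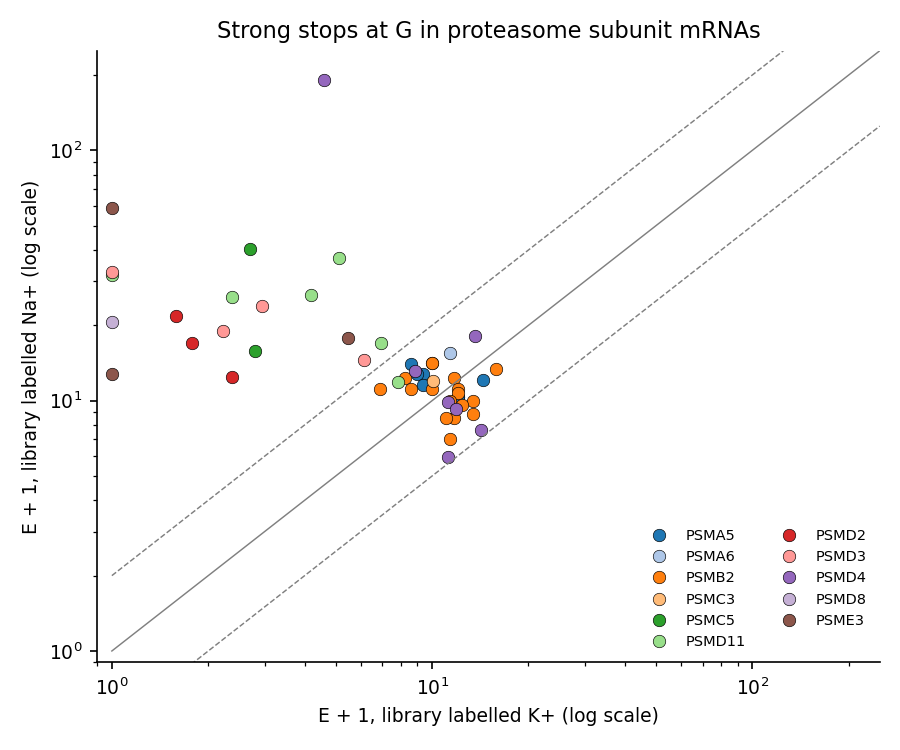
E + 1 at the 52 strong stops at G of 11 members in the library labelled K+ (x axis) and the library labelled Na+ (y axis), both on a log scale, coloured by gene. The solid line marks equal values and the dashed lines a 2-fold difference in E + 1. The 19 stops of PSMC5, PSMD2, PSMD3, PSMD4, PSMD8, PSMD11 and PSME3 that are called dependent lie up and to the left, with PSMD4 highest.

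Of the 33 other strong stops, 1 differed at least 2-fold in E between these libraries, that of PSMD4 with 17 and 9 stops. In PSMB2, a core beta subunit, the strongest had 43 and 33 stops in the libraries labelled K+ and Na+ (E of 14.9 and 12.4), and in PSMA5 69 and 55 (13.4 and 11.1). These mRNAs together held 14 of the 20 and 14 of the 38 strong stops, and none of the 19. As most of their annotated length holds few stops, their mean is low. With the mean of the 250 nt on either side in place of that of the transcript, they held 1 of 17 and 0 of 33, and 23 stops in 9 genes were dependent with the library labelled Na+ used as that in K+, of which 18 were among the 19. PSMA6, an alpha-ring subunit, had 118 and 149 stops at a G in its coding sequence (E of 10.4 and 14.4), and an E of 1.22 in unstressed and 3.72 in starved cells (5 and 53 stops).

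A folding score, which is 0 at the E of RNA refolded in Li+ and 1 at that in K+, needs an E in K+ at least 2-fold that in Li+ and a stop listed in Li+. Among the strong stops of the members this held for 4, all in PSMB2 and none with the motifs above in the 45 nt before it. Their scores were -0.28, 0.81, 1.18 and 1.40 in unstressed cells and 0.80, 1.68, 1.85 and 1.06 in starved cells, higher in starved cells at 3 of 4. They rest on 3 to 21 stops each in the in-cell libraries. None of the G-rich stops shown above passed, and with the limit lowered to 1.5-fold those of PSMD4 (-0.42 and 0.53) and PSME3 (-1.62 in both, with no stop listed in cells) had a score. So did the stop of PSMD3 next to the one shown (0.11 and 1.50, on 6 and 4 stops in unstressed and starved cells).

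Other genes of the proteasome and ubiquitin pathway were counted from a separate list of 43 symbols, of which 38 were in the files and 32 passed the minimum. Of these, 8 rose, 15 fell and 9 did neither in starved over unstressed cells, with a median log2 ratio of -0.29, beside 28.4% and 42.9% of all transcripts. Relative to transcripts of like G+C content 7 rose and 10 fell, beside 25.8% and 25.3% of all transcripts. Among the assembly chaperones of the core, PSMG2 (0.96), POMP (0.90) and PSMG1 (0.62) rose and PSMG3 (-1.01) fell, but relative to like G+C content POMP had -0.58 and PSMG3 1.10, with PSMG2 at 0.46 and PSMG1 at 0.08. Among those of the base, PSMD10 (1.12) and PSMD5 (0.78) rose and PSMD9 (-1.22) fell, with 0.38, 0.10 and -0.16 relative to like G+C content.

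SEM1, a small lid subunit, rose (1.03), as did RPS27A (0.99), which encodes ubiquitin fused to a ribosomal protein, whereas UBB (-0.16), a polyubiquitin gene, did neither. Relative to like G+C content these had 0.78, 0.48 and 1.26. UBA1, the ubiquitin-activating enzyme, fell most (-3.46). NFE2L1, the transcription factor that induces proteasome genes when proteasome activity is low, fell (-2.94), as did VCP (-2.65), the ATPase that extracts tagged proteins, and ADRM1 (-2.37), a ubiquitin receptor of the proteasome. NFE2L2, a related transcription factor, rose (0.75). Relative to like G+C content UBA1 had -1.69, NFE2L1 -1.38 and VCP -1.55, while ADRM1 was level (0.01) and NFE2L2 had 0.21.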

How the data were processed

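In total 6 libraries of U2OS RNA were analysed, 1 per condition. The authors mapped deduplicated reads with Bowtie to hg19 transcripts, as the submitters' processing notes and the methods name them, and the deposited counts give the RT stops at every position of a transcript that had 3 or more. A ratio was deposited beside each count, and its denominator in the files is the average of all positions of that transcript that hold the same base. Unlisted nucleotides were taken as 0, so low positions are understated. The labels and file names of the pair without DMS contradict each other.

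The listed bases placed the transcripts on GENCODE 44 models lifted to GRCh37 (10350 of 11031 with at least 15 listed bases, at least 97% identity, all 34 members). Of these, 258 matches, 2 of them members, were trimmed after the last listed base. The transcript mean behind E was rebuilt from the deposited means and the base composition. Shares are of the listed total of a library, with exact conditional intervals for their ratios, Wilson intervals for A/C shares and Poisson intervals for single positions, all at 95%. The first exon of PSMA1 differed from its match and was left out of the region densities.

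The members, the pathway list and the tests were chosen with earlier results of these data known. Named were the 5 largest rises and falls of stop share, the 3 highest and 3 lowest members for level, A/C share difference and profile likeness, the 5 largest rises and falls of E at A/C positions and up to 10 members with strong stops at G. In total 29 alternatives were listed, and 3 were added after seeing the data, for G+C content, for a local mean behind E and for the library subtracted from A/C shares. PSMC3 also had a strong stop at G but was past the 10 named. The calculations were tested on simulated data. Scripts ran under Python 3.11.15 with scipy 1.17.1, pandas 2.3.3, numpy 2.4.6 and, for figures, matplotlib 3.10.9.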

Additional observations from a re-analysis of the deposited data

How the results depend on the processing

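With 1 library per condition, no alternative tests variation between cultures, and low counts limit what can be seen at single G positions in cells. For the stop share in starved over unstressed cells, thinning, rebuilt totals, A/C stops alone, other count minima, leaving out the 5 strongest positions and summing per gene moved neither count of the members by over 1.5 times. With stops at U and G only, 29 members passed the minimum, of which 13 rose and 8 fell with a median log2 ratio of 0.47 (26.6% and 46.2% of 1672 transcripts, with a median of -0.39), and relative to the median of all transcripts 14 rose with a median of 0.38. With a lower fold as the limit of a call 14 rose and 13 fell (35.7% and 48.8% of all transcripts), and at 2-fold 6 rose and 7 fell (17.4% and 34.4%). Relative to like G+C content 14 rose and 5 fell, with a median of 0.43, and PSMB6 turned from a fall to 0.29. For cells over RNA refolded in K+, stops at U and G only turned the median of unstressed cells to -0.18 and gave 0.15 for starved cells. No paired analysis was possible because each condition has 1 library.

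The median A/C share was 78.7% in starved cells with a difference of -11.1 points after thinning, 83.3% and 74.4% in unstressed and starved cells with a difference of -9.90 points with rebuilt totals, and 38.5 and 25.6 points above the library labelled K+ without DMS or 39.1 and 26.8 points above that labelled Na+. By rank (Spearman), the median profile correlations were 0.56 for unstressed and starved cells, 0.48 and 0.58 for each with RNA refolded in K+, and 0.73 for the refolded pair. Over positions listed in both libraries they were 0.53, 0.45, 0.48 and 0.67, so that unstressed and starved cells differed less in their likeness to refolded RNA.

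With E of at least 5, the libraries labelled K+ and Na+ had 232 and 262 strong stops at G, 15 and 45 of them at least 2-fold stronger there, and with E of at least 20 they had 0 and 10, with 0 and 10 stronger. With the deposited ratio in place of E, the library labelled K+ had 13, of which 2 were stronger, and with the local mean 4 were. With the library labelled Na+ used as that in K+, 19 stops depended on the cation. With the limit of the folding score at 1.5-fold, 11 stops had a score, with medians of 0.11 in unstressed and 1.06 in starved cells. The cause of these shifts was not tested.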
